A study of Homo sapiens with 10 samples.

Results

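Aldo-keto reductases are soluble enzymes that use NADPH to reduce aldehydes and ketones to alcohols. The 7 genes described here were picked by symbol from the 22003 features of the table as members of this family: *AKR1C1*, *AKR1C2*, *AKR1C3*, *AKR1B10*, *AKR1B1*, *AKR1A1* and *AKR7A2*. They were chosen with earlier results of these data known. All 7 passed the filter on low counts, as did 14799 features in all. RNA was sequenced from HaCaT cells (immortalised keratinocytes of human skin, labelled wild type and as mucosa by the submitters), grown in serum-containing medium. Before RNA was taken, cells spent 24 h with LBP, which is a glycoprotein-bound polysaccharide of *Lycium barbarum* (goji), or with vehicle. The 4 groups were irradiated LBP (LBP, then 12 Gy, n = 3), irradiated vehicle (vehicle, then 12 Gy, n = 3), LBP without radiation (n = 2) and vehicle without radiation (n = 2), and RNA was collected 3 h after exposure. Libraries within a group are called repeats in the labels, with no word on separate cultures, so p-values refer to the spread among them, possibly technical.

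The AKR1C enzymes reduce steroid hormones, prostaglandins and aldehydes that arise when lipids are oxidised. AKR1B10 reduces retinal and other carbonyls, and AKR1B1, aldose reductase, turns glucose into sorbitol. In many epithelial cells the AKR1C genes and *AKR1B10* are known targets of NRF2, the transcription factor that switches on genes of the antioxidant response when its inhibitor KEAP1 is blocked.

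*AKR1C1*, *AKR1C2* and *AKR1C3* are neighbours in 1 cluster on chromosome 10, and their likeness bears on how reads can be told apart. On GRCh38 with the GENCODE v29 annotation, *AKR1C1* lies at chr10:4963253-4983283 on the plus strand, *AKR1C2* at chr10:4987400-5018031 on the minus strand and *AKR1C3* at chr10:5035354-5107686 on the plus strand. Only 4116 bases separate *AKR1C1* from *AKR1C2*, and 17322 separate *AKR1C2* from *AKR1C3*. *AKR1B1* (chr7:134442350-134459284, minus strand) and *AKR1B10* (chr7:134527592-134541408, plus strand) share chromosome 7. *AKR1A1* (chr1:45550543-45570049, plus strand) and *AKR7A2* (chr1:19303965-19312146, minus strand) lie apart on chromosome 1. All 7 are annotated as protein coding. The span of *AKR1C2* holds an antisense gene on the opposite strand, and whether their exons overlap was not checked. Whether the counting used strand is not given in the sources used here, so reads of the pair may not be told apart. Short RNA genes also lie within *AKR1C2* and *AKR1C3*, on the opposite strand, and within *AKR7A2*, on the same strand.

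The coding sequences of *AKR1C1* and *AKR1C2* were 98.0% identical, with 19 differing positions among 972 and a longest identical stretch of 189 bases. *AKR1C3* was 91.5% identical to *AKR1C1* and 91.0% to *AKR1C2*. Of all 100-base windows of the *AKR1C1* coding sequence, 19.1% occurred unchanged in an annotated transcript of *AKR1C2* and 2.18% in one of *AKR1C3*. The read length is not given in the sources used here. For *AKR1C2* the share was 51.8% with windows of 50 bases and 4.98% with windows of 150 bases. Of the 100-base windows of the *AKR1C3* coding sequence, 8.25% occurred in a transcript of *AKR1C2*. Counts cover whole transcripts, and there sharing differed. Of the 100-base windows of a whole *AKR1C2* transcript, 31.1% occurred in a transcript of *AKR1C1*. The share was 17.2% for a whole *AKR1C1* transcript in *AKR1C2*. Reads from such windows cannot be given to 1 paralog by sequence alone. *AKR1B10* and *AKR1B1* were 75.8% identical and shared no window of 50, 100 or 150 bases. Coding bases 73 to 162 are shown because they hold many of the positions that separate the paralogs. Capitals mark the 19 positions at which the 3 differ from each other, of which 10 separate *AKR1C1* from *AKR1C2*.
AKR1C1: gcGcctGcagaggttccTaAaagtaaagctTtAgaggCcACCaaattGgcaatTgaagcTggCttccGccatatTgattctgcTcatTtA
AKR1C2: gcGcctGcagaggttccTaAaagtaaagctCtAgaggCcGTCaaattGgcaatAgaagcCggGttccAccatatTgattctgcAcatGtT
AKR1C3: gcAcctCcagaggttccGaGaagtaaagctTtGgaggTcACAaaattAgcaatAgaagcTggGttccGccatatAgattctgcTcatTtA

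The likeness extends to the start regions. RefSeq windows reaching 250 bases upstream of the transcription start (GRCh38.p14) were found for 6 of the 7 members. The *AKR1C1* and *AKR1C2* windows shared an unbroken stretch of 245 bases, whereas *AKR1C3* had no stretch over 19 bases in common with either. Much of this sequence is annotated as exon in GENCODE. Of the 250 bases, 162 lay in exons for *AKR1C1*, 166 for *AKR1C2* and all 250 for the *AKR1C3* window checked. The likeness is therefore not that of upstream sequence alone. The parts of the windows outside any GENCODE exon are shown for the first pair, at chr10:4963165-4963252 on the plus strand and chr10:5004024-5004107 on the minus strand. The 84 bases of *AKR1C2* recur whole in the 88 of *AKR1C1*.
AKR1C1: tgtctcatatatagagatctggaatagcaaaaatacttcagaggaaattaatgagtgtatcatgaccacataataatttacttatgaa
AKR1C2: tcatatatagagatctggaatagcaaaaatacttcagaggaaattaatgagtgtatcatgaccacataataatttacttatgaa

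The core of the antioxidant response element, TGACNNNGC, was searched on both strands of windows of 300 bases, which run from 250 bases before to 50 after the start. It occurred in 13.3% of 35116 RefSeq windows. None of the windows of *AKR1C1*, *AKR1C2*, *AKR1C3*, *AKR1B1* or *AKR1A1* held it, which says only that these letters are not in this window. *AKR7A2* held 3 matches, beginning 95 and 156 bases before the start on the gene's strand and 167 bases before it on the other. The stretch that contains them, chr1:19312147-19312325 on the minus strand, is shown with the matches in capitals.
AKR7A2: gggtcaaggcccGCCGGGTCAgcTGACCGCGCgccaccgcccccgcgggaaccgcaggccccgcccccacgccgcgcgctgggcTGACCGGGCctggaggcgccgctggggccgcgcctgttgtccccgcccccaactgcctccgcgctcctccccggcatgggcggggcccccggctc
The core of the dioxin response element, GCGTG, occurred in 36.5% of the windows, in those of *AKR1B1* and *AKR7A2* once each on the strand opposite the gene, and in none of those of the AKR1C genes or *AKR1A1*.

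Total counts per library ran from 31830506 to 62986831, and the second irradiated LBP library was the shallowest. All 8 listed keratinocyte markers averaged at least 1 CPM (counts scaled to library size, with TMM factors between libraries). Their summed level was 11882 to 12742 CPM in irradiated LBP cells and 10143 to 11826 CPM in irradiated vehicle cells. Without radiation it was 13136 to 13624 CPM with LBP and 10713 to 11365 CPM with vehicle, so the sum was higher with LBP in both states. The 5 markers of simple and mucosal epithelium, which include *KRT8*, *KRT18* and *KRT19*, summed to 5119 to 5804 CPM in irradiated LBP cells and 5884 to 6709 CPM in irradiated vehicle cells, lower with LBP without overlap. Without radiation they summed to 5849 to 6801 CPM with LBP and 6548 to 6862 CPM with vehicle, and these ranges overlapped. The part of either marker list in the results was not tested. Among markers of liver cells, in which several of these enzymes are abundant, *ALB* and *TTR* had 0 counts in all 10 libraries. The remaining marker listed, *APOA1*, had 0.0367 to 0.0983 CPM in irradiated vehicle cells and 0 in the other groups. The sums of fibroblast, endothelial, melanocyte and leukocyte markers stayed between 0.637 and 19.2 CPM. In bulk RNA, more cells of a type and more RNA per cell cannot be told apart.

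The comparison of LBP with vehicle asked how pretreatment changed expression in irradiated and in non-irradiated cells. All 3 AKR1C genes and *AKR1B10* rose with LBP, whether or not the cells were irradiated, by 3.32-fold to 5.64-fold. *AKR1B1* was only slightly higher and *AKR1A1* and *AKR7A2* passed no test. In irradiated cells 4 of the 7 members were called higher, where 2.79% of all features were. Without radiation 4 of 7 were called higher, where 0.541% of all features were. Averaged over both states 5 of 7 were called higher, where 3.99% of all features were (2.93% were called lower), and the median log2 fold change of the members was 1.80, against 0.007 over all features. Of the 6 other tested genes of the superfamily, none was called in either state. Averaged over both states 1 of them was called higher, and their median was 0.19. Because the members were chosen with earlier results of these data known, their counts and median are a description and not a test of the family. The call is an adjusted p under 0.05 in edgeR's quasi-likelihood test, with 1 model for all features and libraries. LBP and vehicle groups did not overlap for 27.5% of all features in irradiated cells and 45.5% in non-irradiated cells.

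**Figure D1:**
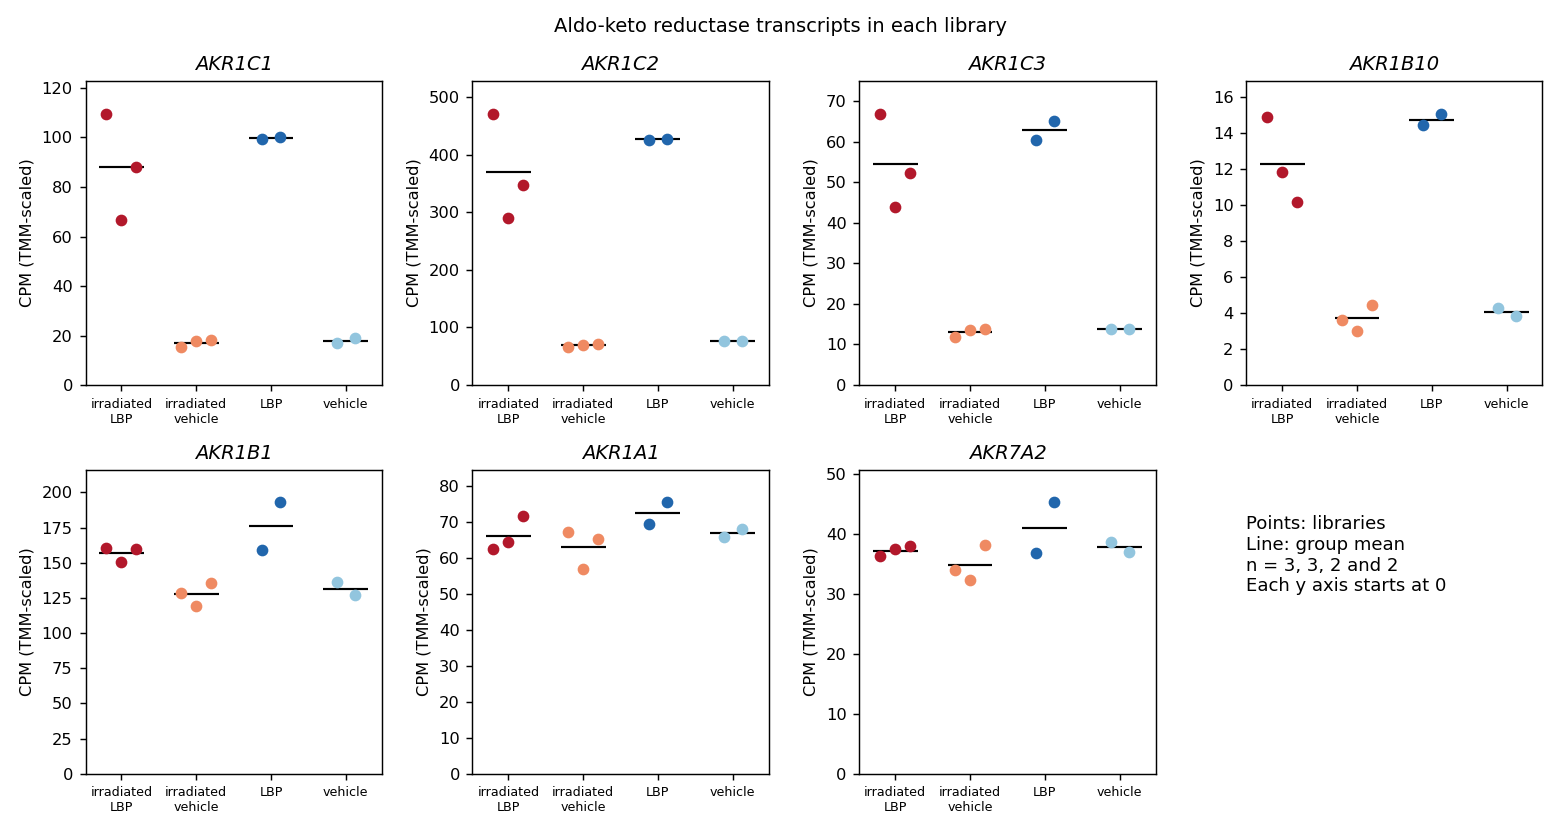
Levels of the 7 members in each library, in TMM-scaled CPM, by group. Points are libraries and lines are group means, with n = 3, 3, 2 and 2; every y axis starts at 0. The LBP libraries of the AKR1C genes and of *AKR1B10* all lie above every vehicle library.

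*AKR1C2*, the enzyme that inactivates dihydrotestosterone and reduces other 3-ketosteroids, had the most counts of the members in every LBP library, whereas *AKR1B1* had the most in every vehicle library. It stood at 472, 291 and 348 CPM in irradiated LBP cells, against 66.5, 69.3 and 71.4 CPM in irradiated vehicle cells. Without radiation it stood at 425 and 428 CPM in LBP cells and at 75.8 and 75.7 CPM in vehicle cells. The lowest LBP library, the second irradiated one, was still far above the highest vehicle library. The rise was 5.36-fold in irradiated cells (95% interval 4.36 to 6.60, adjusted p = 2.08e-06) and 5.64-fold in non-irradiated cells (4.37 to 7.27, adjusted p = 1.25e-05).

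*AKR1C1*, which inactivates progesterone by reducing its 20-keto group, followed the same course at a lower level. It had 110, 66.7 and 88.0 CPM in irradiated LBP cells, against 15.2, 17.7 and 18.4 CPM in irradiated vehicle cells. In non-irradiated cells it had 99.3 and 100.1 CPM with LBP and 17.2 and 18.8 CPM with vehicle. No LBP library overlapped a vehicle library, where groups did not overlap for 27.5% of all features in irradiated cells and 45.5% in non-irradiated cells. The log2 fold change was 2.37 ± 0.15 (SE) in irradiated cells (adjusted p = 4.91e-06) and 2.47 ± 0.18 in non-irradiated cells (adjusted p = 2.67e-05).

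*AKR1C3* encodes a 17-ketosteroid reductase that also makes prostaglandin F from prostaglandins H and D. Its level was 66.9, 43.9 and 52.3 CPM in irradiated LBP cells and 11.9, 13.6 and 13.9 CPM in irradiated vehicle cells. Without radiation the level was 60.3 and 65.2 CPM with LBP and 13.8 and 13.8 CPM with vehicle. Again no LBP library overlapped a vehicle library, where groups did not overlap for 27.5% of all features in irradiated cells and 45.5% in non-irradiated cells. The second irradiated LBP library was the lowest of the LBP libraries for all 3 AKR1C genes. *AKR1C3* rose by 2.05 ± 0.13 on the log2 scale in irradiated cells (adjusted p = 5.15e-06) and by 2.18 ± 0.16 in non-irradiated cells (adjusted p = 2.67e-05).

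*AKR1B10* was the scarcest member by counts, with 142 to 709 counts per library. It had 14.9, 11.9 and 10.2 CPM in irradiated LBP cells, against 3.64, 3.00 and 4.48 CPM in irradiated vehicle cells. Without radiation it had 14.4 and 15.1 CPM with LBP and 4.29 and 3.87 CPM with vehicle. All 5 LBP libraries lay above all 5 vehicle libraries, although the irradiated LBP libraries were ordered differently from those of the AKR1C genes. Within a state, groups did not overlap for 27.5% of all features in irradiated cells and 45.5% in non-irradiated cells. The share over both states together was not computed. The rise was 3.32-fold in irradiated cells (95% interval 2.59 to 4.26, adjusted p = 0.000147) and 3.63-fold in non-irradiated cells (2.68 to 4.91, adjusted p = 0.000548).

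*AKR1B1*, the aldose reductase, changed by a smaller fold than *AKR1B10*, though the difference between the genes was not tested. Its level was 160, 151 and 160 CPM in irradiated LBP cells and 128, 119 and 136 CPM in irradiated vehicle cells. In non-irradiated cells it was 159 and 193 CPM with LBP and 136 and 127 CPM with vehicle. The LBP libraries were higher without overlap in both states, as they or the vehicle libraries were for 27.5% of all features in irradiated cells and 45.5% in non-irradiated cells. The log2 difference was 0.30 ± 0.08 in irradiated cells (adjusted p = 0.0554) and 0.42 ± 0.10 in non-irradiated cells (adjusted p = 0.0787), and neither was called. Averaged over both states, *AKR1B1* was called higher by 1.28-fold (95% interval 1.17 to 1.41, adjusted p = 0.00665).

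*AKR1A1*, the aldehyde reductase of general metabolism, had 62.4, 64.3 and 71.6 CPM in irradiated LBP cells and 67.1, 56.8 and 65.1 CPM in irradiated vehicle cells. Without radiation it had 69.4 and 75.4 CPM with LBP and 65.7 and 67.9 CPM with vehicle. The irradiated groups overlapped, and the non-irradiated LBP libraries were higher without overlap, though by little. Non-irradiated groups did not overlap for 45.5% of all features. *AKR7A2*, which reduces succinic semialdehyde and aflatoxin aldehydes, had 36.2, 37.4 and 38.0 CPM in irradiated LBP cells and 34.0, 32.2 and 38.1 CPM in irradiated vehicle cells. Without radiation it had 36.8 and 45.2 CPM with LBP and 38.6 and 37.0 CPM with vehicle, and the groups overlapped in both states. Averaged over both states the log2 difference was 0.09 for *AKR1A1* (95% interval -0.05 to 0.23, adjusted p = 0.421) and 0.11 for *AKR7A2* (-0.04 to 0.26, adjusted p = 0.395), so those intervals end well below the changes of the AKR1C genes.

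**Figure D2:**
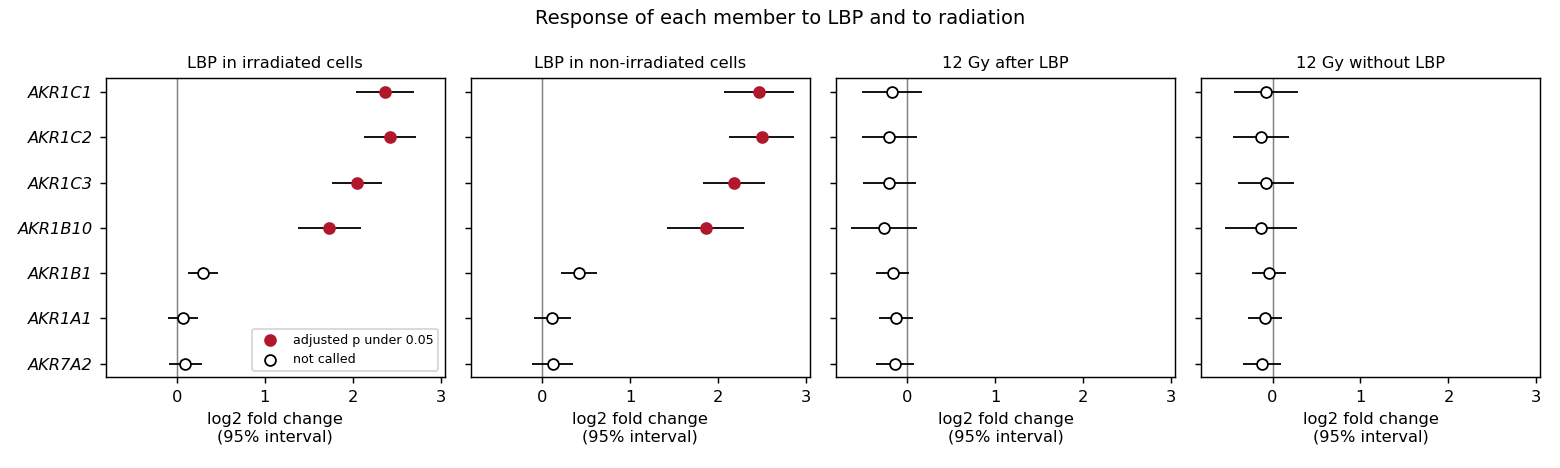
Log2 fold change of each member with its 95% interval, for LBP against vehicle and for 12 Gy against no radiation; filled points passed an adjusted p of 0.05. The AKR1C genes and *AKR1B10* lie between 1.73 and 2.49 with LBP, and no member passed in a radiation comparison.

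Radiation was compared with its absence to ask whether 12 Gy changed these genes within 3 h. None of the 7 members was called after radiation with LBP, where 0.142% of all features were called, or without it, where 0.439% were. None reached an unadjusted p of 0.05 in edgeR and none was called by DESeq2 in either comparison. Without LBP the irradiated libraries of *AKR1C2*, at 66.5 to 71.4 CPM, lay below the non-irradiated ones, at 75.7 to 75.8 CPM, and groups likewise did not overlap for 27.6% of all features. The other 6 members overlapped there, and all 7 overlapped after LBP, where the groups of 28% of all features did not. After LBP the log2 differences of the members ran from -0.26 for *AKR1B10* to -0.13 for *AKR1A1*, and without LBP from -0.13 for *AKR1C2* to -0.04 for *AKR1B1*. For *AKR1C2* the interval was -0.52 to 0.11 after LBP and -0.45 to 0.19 without it, so falls down to those lower ends are not excluded. Both radiation comparisons share their libraries with the LBP comparisons.

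Whether radiation altered the response to LBP was tested as an interaction, the irradiated LBP difference less the non-irradiated one. The interaction was -0.10 ± 0.23 for *AKR1C1*, -0.07 ± 0.21 for *AKR1C2*, -0.13 ± 0.20 for *AKR1C3* and -0.13 ± 0.26 for *AKR1B10*, with adjusted p from 0.879 to 0.942. None of the 7 was called, none reached an unadjusted p of 0.05 and DESeq2 called none, where edgeR called 0.0135% of all features. For *AKR1C2* the interval ran from -0.52 to 0.38, so a difference between the responses inside that range is not excluded.

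The division of the AKR1C counts among the 3 genes is given as a description. *AKR1C1* took 17.2% of the summed AKR1C counts in irradiated LBP cells, 17.2% in irradiated vehicle cells, 16.9% in LBP cells and 16.7% in vehicle cells. *AKR1C3* took 10.3 to 11.0% with LBP and 12.7 to 13.5% with vehicle, and those ranges did not overlap. *AKR1C2* took the rest, from 68.8 to 72.8%. Since the paralogs can share reads, their counts were also summed and tested as 1 feature. The sum rose by 2.37 on the log2 scale in irradiated cells (adjusted p = 2.5e-06) and by 2.45 in non-irradiated cells (adjusted p = 1.41e-05).

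**Figure D3:**
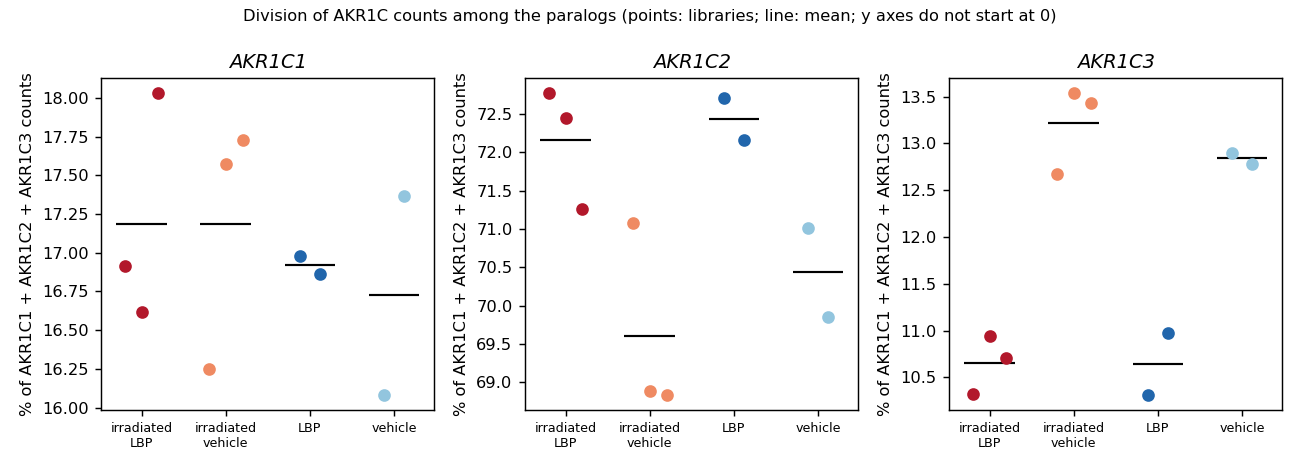
Share of each paralog in the summed counts of *AKR1C1*, *AKR1C2* and *AKR1C3*, in percent, by library and group; points are libraries, lines are means and the y axes do not start at 0. The *AKR1C3* share is 10.3 to 11.0% in the LBP libraries and 12.7 to 13.5% in the vehicle libraries.

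Levels of different genes were set side by side on the authors' FPKM, which divide by gene length. In vehicle cells the order was *AKR1B1* (84.0 FPKM), *AKR1A1* (41.4), *AKR7A2* (24.8), *AKR1C2* (18.2), *AKR1C3* (10.2), *AKR1C1* (2.45) and *AKR1B10* (2.21), and only the last pair overlapped between libraries. In LBP cells *AKR1C2* averaged 101.1 FPKM and overlapped *AKR1B1* at 107.9 FPKM, and *AKR1C3*, at 44.6 FPKM, overlapped *AKR1A1* at 42.5 FPKM. Irradiated LBP and irradiated vehicle cells had the same orders and overlaps as their non-irradiated counterparts. The counts and FPKM of *AKR1C1* imply a length of 7398 bases, against 1356 bases for *AKR1C3*, so the low place of *AKR1C1* rests on a long gene model. The AKR1C genes together made 41.0 to 51.6% of the summed FPKM of the 7 members in irradiated LBP cells and 15.5 to 18.0% in irradiated vehicle cells. In non-irradiated cells they made 44.4 to 48.6% with LBP and 16.3 to 17.4% with vehicle.

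**Figure D4:**
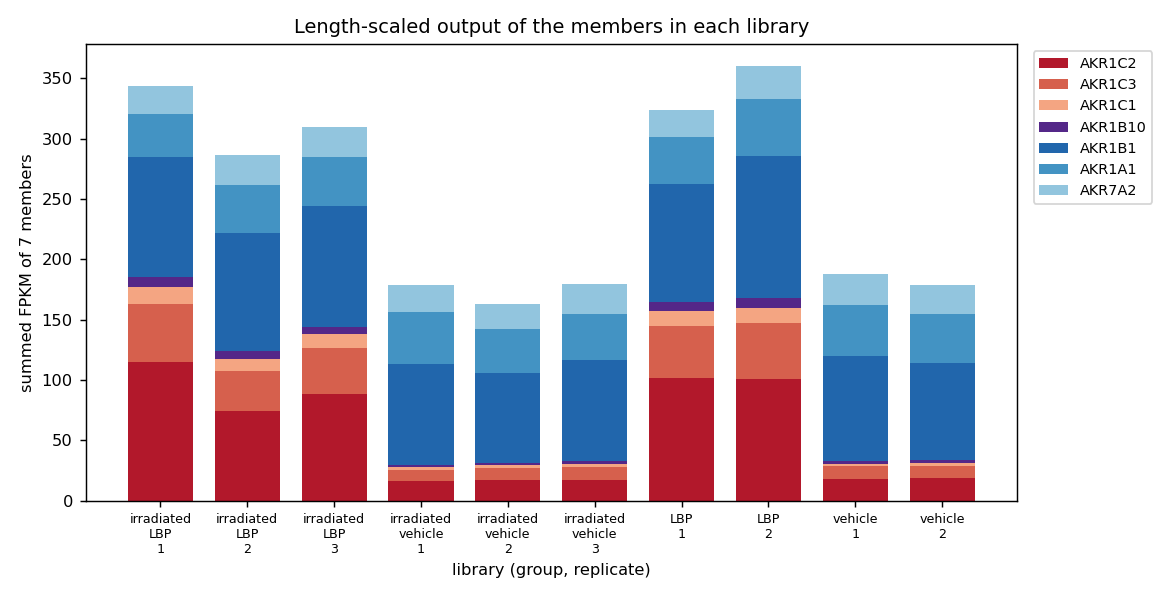
FPKM of the 7 members stacked for each library, in FPKM as deposited by the authors, with groups from left to right and the y axis from 0. The sums are 287 to 343 in irradiated LBP, 163 to 180 in irradiated vehicle, 324 to 361 in LBP and 179 to 188 in vehicle libraries.

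Few other genes of the superfamily were expressed. *AKR1C4*, the liver member of the cluster, and the pseudogene *AKR1C8P* had 0 counts in all 10 libraries, and 3 counts, taken as the limit a count of 0 allows, would be 0.0478 to 0.0925 CPM. *AKR1B15*, *AKR1D1*, *AKR1E2*, *AKR7A3* and *KCNAB1* passed the filter but averaged under 1 CPM, and none of them was called with LBP averaged over both states, although *AKR1B15* gained that call in 1 of 13 alternative settings. *AKR1B15*, next to *AKR1B10* and 85.3% identical to it in coding sequence, had 6 to 15 counts in irradiated LBP cells and 0 to 6 in irradiated vehicle cells. Reads shared with *AKR1B10* cannot be told apart at such counts. *KCNAB2*, a potassium channel beta subunit with an aldo-keto reductase fold, was called higher when averaged over both states, by 0.56 ± 0.10 (adjusted p = 0.00929). In edgeR it was called neither in irradiated cells (adjusted p = 0.0518) nor in non-irradiated cells (adjusted p = 0.12). It averaged 6.41 ± 0.99 CPM (SD, n = 3) in irradiated LBP cells and 4.55 ± 0.07 (n = 3) in irradiated vehicle cells. Without radiation it averaged 6.80 ± 0.15 CPM (n = 2) with LBP and 4.45 ± 0.29 (n = 2) with vehicle.

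The genes around these enzymes were taken from lists chosen with earlier results of these data known, so the counts below are a description. Each list is given for LBP averaged over both radiation states, where 3.99% of all features were called higher. Of 27 tested NRF2 targets outside the family, 25 rose and none fell, with a median of 0.60. The smallest p-values of the list were those of *HMOX1*, haem oxygenase, at 4.49 ± 0.16, *OSGIN1*, an oxidative stress-induced growth inhibitor, at 1.91 ± 0.10, and *NQO1*, a quinone reductase, at 1.16 ± 0.07. Of 8 genes for NRF2 and its regulators, *KEAP1*, *MAFG* and *BACH1* rose, by 0.25, 0.42 and 0.35, while *NFE2L2*, which encodes NRF2 itself, was not called (0.15 ± 0.06, adjusted p = 0.158). Both *KEAP1*, which targets NRF2 for degradation, and *BACH1*, a repressor at the same sites, act against NRF2.

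Lists of other carbonyl and steroid enzymes, chosen in the same way, are given on the same scale. Of all features, 3.99% were called higher and 2.93% lower. Of 17 aldehyde dehydrogenases, 5 rose and 1 fell, with a median of 0.12, and *ALDH3A1*, which oxidises aldehydes from lipid peroxidation, rose by 1.88 ± 0.11. *ALDH3A2*, *ALDH1A3* and *ALDH2* rose by 0.45, 0.43 and 0.28. Of 17 short-chain dehydrogenases that reduce carbonyls, 1 rose, *RDH10*, by 0.25, and the carbonyl reductase *CBR1* was not called (0.18 ± 0.05, adjusted p = 0.0672). None of 15 steroid dehydrogenases and reductases was called, with a median of 0.0004, and none reached an unadjusted p of 0.05 in edgeR or was called by DESeq2. For lists of this size, the counts of the short-chain and steroid lists are near the shares over all features. Of 8 prostaglandin genes, 2 rose, the prostaglandin reductase *PTGR1* by 0.67 ± 0.06 and *PTGS1*, cyclooxygenase 1, by 0.52 ± 0.06. Of 6 partners of the polyol pathway, the glucose transporter *SLC2A1* and the hexokinase *HK2* rose by 0.33 and 0.23.

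**Figure D5:**
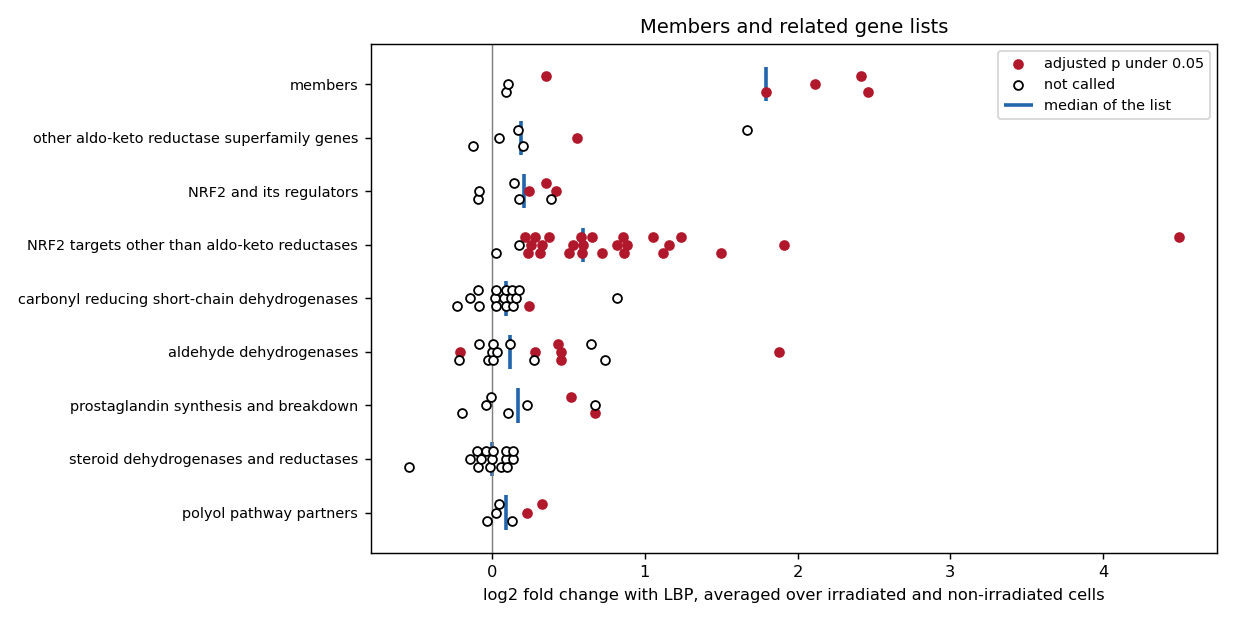
Log2 fold change with LBP, averaged over irradiated and non-irradiated cells, of the tested genes in each list; filled points passed an adjusted p of 0.05 and vertical bars are list medians. The members have a median of 1.80 and the NRF2 targets a median of 0.60.

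Genes with profiles most like each responsive member were found by the root mean square difference of centred log2 CPM over the 10 libraries, among 10028 features. For *AKR1C1* these were *AKR1C2*, at 0.07, *AKR1C3* and the cytochrome *CYP1B1*, at 0.16 each, *EPGN*, an EGF-like ligand, at 0.26, and *OSGIN1*, at 0.28. The nearest to *AKR1C2* were the same genes with *AKR1C1* in its place. For *AKR1C3* they were *OSGIN1* (0.15), *ALDH3A1* (0.16), *AKR1C1*, *EPGN* and *AKR1C2*, and for *AKR1B10* the fatty acid hydroxylase *CYP4F11* (0.21), *ALDH3A1* (0.21), *OSGIN1* (0.23), *SLC7A11* (0.25), a cystine importer, and *AKR1C3* (0.25). *CYP1B1* rose by 2.34 ± 0.10 with LBP averaged over both states. These values describe likeness over libraries that share their LBP difference. The AKR1C paralogs can also share reads, and the part of shared reads in their likeness was not tested.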

How the data were processed

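Gene counts and FPKM for 10 HaCaT libraries were used as deposited by the authors. Per the submitters' processing notes, HISAT2 and GRCh38 were used; the sources used here name no counting tool, strand setting or annotation. Of deposited counts from 1 to 10, 59.7% were even, so both mates may be counted. Groups came from the labels. Counts were tested with edgeR 4.0.16 (filterByExpr minimum count 10, TMM scaling, quasi-likelihood, 1 mean per group, 6 residual degrees of freedom), with Benjamini-Hochberg adjustment over all 14799 features. Contrasts were LBP in each radiation state, their average, 12 Gy with or without LBP, and the interaction. Simulated data with known changes were used to test the scripts. DESeq2 1.42.0 and limma 3.58.1 on the authors' log2(FPKM + 1) were alternatives. Named genes were the members, the tested superfamily genes, up to 4 genes with the smallest p per list and 5 nearest profiles. Members and lists were chosen with earlier results of these data known. Libraries of a group differed by more than counting noise (chi-square per degree of freedom from 10.7). Intervals of fold changes come from the edgeR fit and include the spread between libraries; floors cover counting error only.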

Additional observations from a re-analysis of the deposited data

How the results depend on the processing

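*AKR1C1*, *AKR1C2*, *AKR1C3* and *AKR1B10* were called higher with LBP in irradiated cells, in non-irradiated cells and on average under every alternative run, which were DESeq2 size factors, DESeq2, no low-count filter, only the groups compared, FPKM fits, the replicate block and each library left out. *AKR1B1* gained a call in 5 of 18 alternatives in irradiated cells and 3 of 18 in non-irradiated cells, DESeq2 and no filter among them, and kept its averaged call in all 17. *KCNAB2* lost its averaged call in 1 of 17. *AKR1B15* gained an averaged call in 1 of 13, without irradiated vehicle replicate 3 (2.59, adjusted p = 0.0363), and ranged from 0.104 to 2.59. By shares of FPKM in place of counts, *AKR1C1*, *AKR1C2* and *AKR1C3* took 8.15, 61.2 and 30.6% of the AKR1C sum over all libraries, against 17.0, 71.1 and 11.9% by counts, which follows from the gene lengths.

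Among same-numbered libraries, deviations from the group means had r over 0.1 in 2 of 13 pairs (range -0.252 to 0.193). In groups of 2 libraries the deviations mirror each other, so the pairs are not independent. The check therefore cannot show that pairing was absent. Numbers were not treated as pairing in the main fit. With the replicate block, *AKR1C2* stood at 2.41 in irradiated and 2.49 in non-irradiated cells, 4, 4 and 5 members were called with LBP, and *AKR1B15* after 12 Gy with LBP turned to -0.0257.

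Uncalled values near 0 changed sign. With log2(FPKM + 1), filtered or not, *AKR1A1* with LBP in irradiated cells was -0.0193 and the *AKR7A2* interaction 0.0570; with a pseudocount of 0.1 they were -0.0197 and 0.0596. With 1 library left out, the interaction ran from -0.160 to 0.128 for *AKR7A2*, -0.288 to 0.0619 for *AKR1C1*, -0.283 to 0.0742 for *AKR1C2*, -0.115 to 0.00743 for *AKR1A1*, -0.289 to 0.0357 for *AKR1B10* and -0.254 to 0.0157 for *AKR1B1*. After 12 Gy with LBP it ran from -0.177 to 0.0318 for *KCNAB2*, -0.277 to 0.0115 for *AKR7A2* and -0.162 to 0.440 for *AKR1B15*. After 12 Gy without LBP it ran from -0.140 to 0.00599 for *AKR1C1*, -0.0893 to 0.00770 for *AKR1B1*, -0.296 to 0.00342 for *AKR1B10* and -0.0244 to 0.0942 for *KCNAB2*. With LBP it ran from -0.00306 to 0.116 for *AKR1A1* in irradiated and -0.0382 to 0.250 for *AKR7A2* in non-irradiated cells. The cause was not tested.

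Counts over all features moved more than those of the members. edgeR called 645 with LBP in irradiated cells, against 1228 by DESeq2, 409 with only the groups compared, 169 to 369 on FPKM and 176 to 722 with 1 library left out (176 to 223 without an irradiated vehicle library). In non-irradiated cells it called 119, against 374 by DESeq2, 278 with only those groups, 188 without a filter and 38 to 175 with 1 library left out. Averaged, it called 1025, against 344 to 659 on FPKM and 309 to 1141 with 1 library left out. After 12 Gy without LBP it called 65, against 129 by DESeq2 and 25 to 75 with 1 library left out, and after LBP 21, against 184 and 8 to 51. The interaction had 2 calls, against 16 by DESeq2 and 7 without a filter. Having 2 libraries per non-irradiated group limits the precision, and the lone library left when 1 is omitted is assumed to vary like the others.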
